A study of Mus musculus with 21 samples.

Results

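The genes described here are chains of cytokine receptors, 9 of them chosen by name: Csf2rb, Csf2rb2, Il3ra, Epor, Il4ra, Il2rg, Il7r, Il6st and Ifngr1. The names were chosen with earlier results of these data known, but no measured value entered the choice. Of the 9 chains, 7 have a value in all 4 deposited tables, which together list 14698 genes. Il7r and Il6st have no value in any of them. All libraries came from Ba/F3, a mouse pro-B cell line that normally needs interleukin-3, here made to express human JAK2-V617F by retroviral transfer and selected for growth without interleukin-3. RNA was sequenced from 21 libraries in 7 groups of 3. In the 6 h experiment the cells received DMSO, 1 μM ruxolitinib or 1 μM CHZ868, which gave the DMSO-treated, ruxolitinib-treated and CHZ868-treated groups. In the washout experiments the cells were exposed for 1 h to an inhibitor at 1 μM or to DMSO, washed with PBS and kept for 6 h without inhibitor. These are the ruxo-wash and CHZ868-wash groups, and every washout experiment has separate DMSO-wash controls. Every group, controls included, carries the JAK2-V617F transgene, and parental Ba/F3 cells were not analysed here.

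Cytokine receptors of this family have no kinase domain of their own. Their chains hold JAK kinases at the membrane, and ligand-driven pairing of the chains brings the kinases together so that STAT proteins are phosphorylated. The mutant kinase JAK2-V617F signals without ligand but still uses receptor tails as a scaffold, best known for receptors that pair with themselves, such as the erythropoietin receptor. Ruxolitinib binds JAK1 and JAK2 in the active conformation (type I), whereas CHZ868 holds JAK2 in the inactive one (type II). The comparisons below ask how the messages of the receptor chains differed between cells with either inhibitor and solvent, and whether a difference was seen once the inhibitor had been removed.

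The values are log2 CPM, the binary logarithm of a read count scaled to the depth of its library. Between 7880000 and 10670000 reads lay on the listed genes in the 15 libraries where whole reads could be recovered from the low values, and the depth of the ruxo-wash table is unknown. Ruxolitinib-treated replicate 2 stood apart from the other replicates of its group, with a standard deviation of log2 differences of 0.37 and 0.35 against 0.20 between the other two. DMSO-wash replicate 3 of the CHZ868 experiment did so as well, with 0.31 and 0.40 against 0.20. The source labels do not state that replicates were separate cultures, so p-values measure the spread between these libraries only. Of 14 markers of pro-B cells, 3 (Ptprc, Cd79a and Cd79b) could be analysed, and defining ones such as Pax5 and Rag1 were not among the genes with a value. Under CHZ868, Cd79a alone of these 3 passed the test, beside 53.2% of all genes. It rose by 0.42 (adjusted p = 0.0414, limma-trend), with overlapping groups. Cd79b and Ptprc were at 0.23 and 0.09 (adjusted p = 0.292 and 0.334, limma-trend). With ruxolitinib Cd79a and Cd79b lay above all controls, by centred log2 differences of 0.48 and 0.23. Ptprc was at -0.007 with overlapping groups, and 44.6% of all shared genes did not overlap. Gata2, the 1 mast cell marker measured in both tables, was at 0.02 under CHZ868 (adjusted p = 0.781, limma-trend) and lay above all controls with ruxolitinib, by 0.30. Of the markers of other cells, 0 of 4 T cell markers were measured. Of 6 markers of neutrophils and monocytes 2 were measured, and both fell under CHZ868 (26.4% of all genes did). In bulk RNA, fewer cells of a type and less RNA per cell cannot be told apart.

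Csf2rb and Csf2rb2 need a word on sequence before their values, because short reads of one can be assigned to the other. Csf2rb is the beta chain shared by the receptors for interleukin-3, GM-CSF and interleukin-5, and Csf2rb2 is a second beta chain found in mice that serves the interleukin-3 receptor. In the GENCODE annotation of GRCm38, Csf2rb (ENSMUSG00000071713.6) lies on chromosome 15 from 78325752 to 78353847 on the plus strand, and Csf2rb2 (ENSMUSG00000071714.7) from 78282507 to 78305721 on the minus strand, with 20030 bases between them. The coding sequences of their longest transcripts have 2688 and 2634 bases and were 95.2% identical over 2628 aligned positions. The longest stretch without a difference was 242 bases, and 39.6% of the 31-base words of the Csf2rb coding sequence also occur in Csf2rb2. The following 90 coding bases, each 5′ to 3′ and inside a single exon, differ most between the copies, and capitals mark the 16 positions that differ (Csf2rb, chr15:78338897-78338986, exon 5, plus strand, and Csf2rb2, chr15:78294345-78294434, exon 4, minus strand).
Csf2rb: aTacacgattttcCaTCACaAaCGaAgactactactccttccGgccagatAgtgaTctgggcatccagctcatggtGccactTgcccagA
Csf2rb2: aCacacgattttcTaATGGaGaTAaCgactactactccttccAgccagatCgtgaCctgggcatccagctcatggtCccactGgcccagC
By contrast, the next 90 coding bases, from the longest shared stretch in the last exon, are the same in both genes, so a read from here fits either copy (Csf2rb, chr15:78348577-78348666, exon 15, and Csf2rb2, chr15:78284782-78284871, exon 14).
Csf2rb and Csf2rb2: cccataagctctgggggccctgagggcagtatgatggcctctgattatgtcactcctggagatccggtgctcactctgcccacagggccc

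The promoters of 8 of the 9 chains (all but Csf2rb) were found among the RefSeq promoters of GRCm38.p6, each covering 250 bases before and 50 after the start of the gene. They were searched on both strands for the STAT-type motif TTCNNNGAA, for the same motif with 4 bases between TTC and GAA, and for the GATA motif AGATAA, which do not overlap in any match below. Across all 32851 promoters, 8.3% hold the first, 6.95% the second and 11.2% the third. Csf2rb2, Il7r and Epor had 1 match each, and the other 5 promoters had none. The 250 bases before the start of Epor, a target of GATA factors in red cell precursors, hold the GATA letters on the opposite strand (capitals, chr9:21963577-21963826, minus strand). Those of Csf2rb2 hold the first STAT-type motif close to the start (capitals, chr15:78305722-78305971, minus strand).
Epor: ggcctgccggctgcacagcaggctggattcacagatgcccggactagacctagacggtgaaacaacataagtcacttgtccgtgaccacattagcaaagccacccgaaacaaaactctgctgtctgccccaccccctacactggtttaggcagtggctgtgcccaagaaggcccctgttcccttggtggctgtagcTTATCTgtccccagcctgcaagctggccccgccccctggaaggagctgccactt
Csf2rb2: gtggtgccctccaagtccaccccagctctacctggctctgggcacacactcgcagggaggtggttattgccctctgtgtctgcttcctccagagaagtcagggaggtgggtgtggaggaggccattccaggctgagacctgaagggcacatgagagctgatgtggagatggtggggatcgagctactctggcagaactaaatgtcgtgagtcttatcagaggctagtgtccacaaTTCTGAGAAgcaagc
A match is a string of letters and says nothing about binding in these cells.

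Among DMSO-treated cells the beta chains were by far the most abundant of the 7 chains. Per kilobase of the longest annotated transcript, the level was 8.41 ± 0.01 log2 CPM for Csf2rb and 8.28 ± 0.03 for Csf2rb2 (SD, n = 3). Il4ra followed with 4.53 ± 0.05, Ifngr1 with 4.44 ± 0.05 and Il3ra with 4.29 ± 0.03. Epor had 3.34 ± 0.14 and Il2rg, the lowest, 2.51 ± 0.45. Among neighbours in this order the ranges of the 3 libraries overlapped for Il4ra and Ifngr1 alone. Under CHZ868 the order of the lower chains was Ifngr1, Il3ra, Il2rg, Epor and Il4ra, with levels per kilobase of 4.92, 4.05, 3.96, 3.73 and 3.52, where Il3ra overlapped Il2rg and Il2rg overlapped Epor. Under ruxolitinib it was Ifngr1, Il3ra, Epor, Il4ra and Il2rg, with 5.19, 4.57, 4.21, 3.84 and 2.87. The places of Il4ra and Il3ra in these orders depend on the transcript length. Per kilobase of the mean protein-coding transcript, Il4ra was at 5.88 in DMSO-treated cells, 5.19 with ruxolitinib and 4.87 with CHZ868. On that scale it stood above Epor (4.76) and level with Ifngr1 (5.19) under ruxolitinib, and above Il2rg (4.52) and Epor (4.27) under CHZ868. Il3ra was then above Ifngr1 in DMSO-treated (5.13 against 4.44) and ruxolitinib-treated cells (5.41 against 5.19), but not with CHZ868 (4.88 against 4.92). Csf2rb was then at 9.38, Csf2rb2 at 8.51 and Il2rg, again lowest, at 3.07 in DMSO-treated cells. The order was not the same in all controls. Per kilobase of the longest transcript, DMSO-wash cells of the ruxolitinib experiment had Csf2rb at 5.39, Il3ra at 4.96, Il2rg at 4.58 and Csf2rb2 at 3.48. In those of the CHZ868 experiment the beta chains were again highest, with 7.46 for Csf2rb and 7.48 for Csf2rb2.

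**Figure D1:**
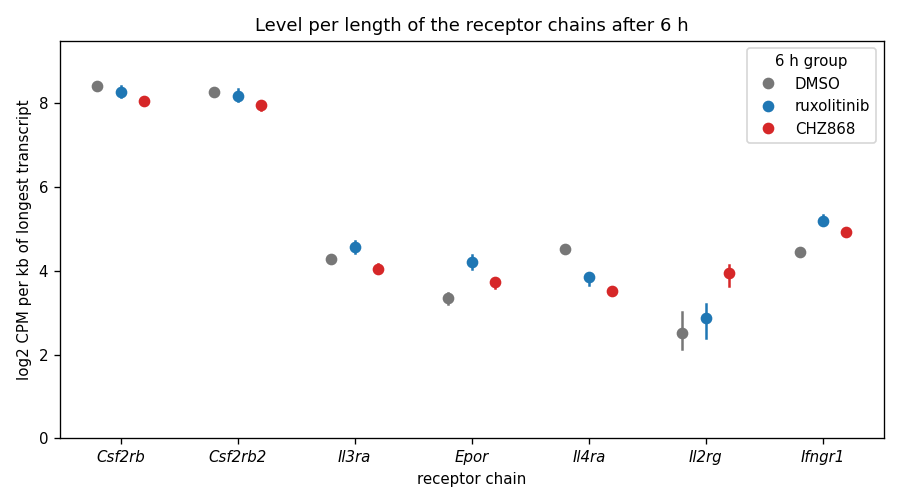
Level per length of the 7 receptor chains in the 3 groups of the 6 h experiment, as log2 CPM per kb of the longest transcript, with points for group means and bars for the range of the 3 libraries. Csf2rb and Csf2rb2 lie near 8 in every group, while Il4ra falls from 4.53 in DMSO-treated to 3.52 in CHZ868-treated cells and Il2rg rises from 2.51 to 3.96. Ruxolitinib-treated values come from a separate table and are shown as deposited.

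All 7 chains passed the test between CHZ868-treated and DMSO-treated cells, 3 higher and 4 lower, in a comparison where 53.2% of all genes tested passed (6214 of 11670). Il2rg, Ifngr1 and Epor rose (26.8% of all genes did), and Il4ra, Csf2rb, Csf2rb2 and Il3ra fell (26.4% did). A call is an adjusted p under 0.05 by limma-trend, with p-values adjusted by Benjamini and Hochberg's method across the 11670 genes. The median log2 fold change of the 7 chains was -0.24, beside -0.01 for all genes. In each of the 7 the 3 CHZ868-treated libraries lay on one side of the 3 DMSO-treated ones, as did 59.7% of all genes.

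Ruxolitinib-treated cells are in a separately normalized table, so the median of the 11624 genes shared with the DMSO-treated table was set equal in every library, and no test was run. Here 4 of the 7 chains had groups that did not overlap, 3 higher (Epor, Ifngr1 and Il3ra) and 1 lower (Il4ra), beside 44.6% of all shared genes (24.6% higher and 20.1% lower). Without ruxolitinib-treated replicate 2, 6 of the 7 did not overlap, since Csf2rb and Csf2rb2 were then lower as well, and the share of all shared genes was 57.2%. The ruxolitinib-treated and CHZ868-treated cells are set against the same DMSO-treated libraries, so their differences are given side by side and are not independent of each other.

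**Figure D2:**
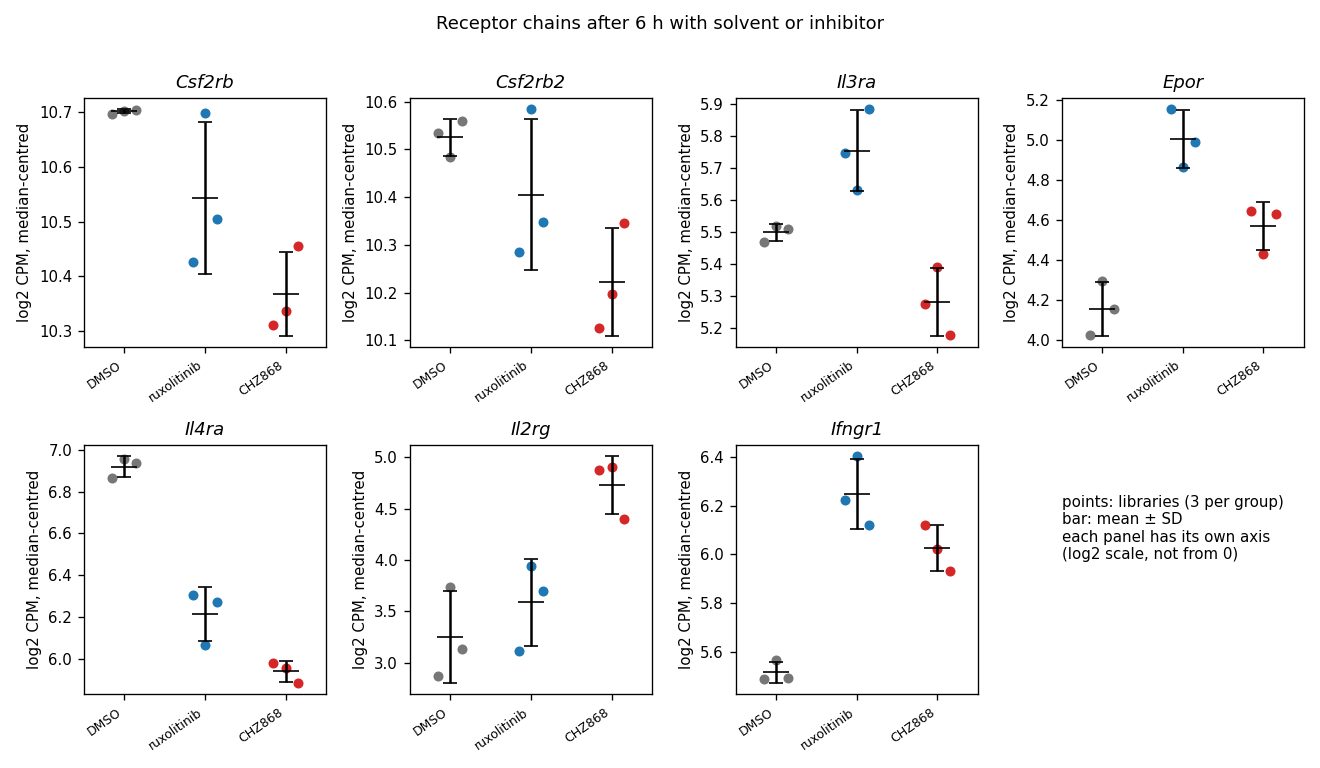
Median-centred log2 CPM of the 7 receptor chains in the DMSO-treated, ruxolitinib-treated and CHZ868-treated libraries, with points for the 3 libraries of a group and bars for mean ± SD. Il4ra is lower and Epor and Ifngr1 are higher with either inhibitor than in all DMSO-treated libraries, Il2rg is apart in CHZ868-treated cells, and Il3ra lies above DMSO with ruxolitinib and below it with CHZ868.

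The interleukin-3 receptor is built from Il3ra, the ligand-binding alpha chain, and a beta chain. Csf2rb had 10.70, 10.71 and 10.70 log2 CPM in the DMSO-treated libraries, 10.28, 10.32 and 10.42 in the CHZ868-treated and 10.45, 10.70 and 10.55 in the ruxolitinib-treated ones. It was lower in all CHZ868-treated libraries, whereas the second ruxolitinib-treated library reached the level of DMSO. The log2 fold change with CHZ868 was -0.36 (standard error 0.06, adjusted p = 8.01e-05, limma-trend), that is 1.28-fold lower. Quantile normalization took it to -0.84. With ruxolitinib the centred difference was -0.16, and it became -0.35 with quantile normalization and -0.24 without replicate 2. Csf2rb2 had 10.53, 10.49 and 10.56 log2 CPM in DMSO-treated, 10.10, 10.18 and 10.31 in CHZ868-treated and 10.31, 10.59 and 10.39 in ruxolitinib-treated libraries. All CHZ868-treated libraries were again below the controls, but here the second ruxolitinib-treated library lay above all controls and the other two below them. With CHZ868 it fell by 0.33 on the log2 scale (standard error 0.06, adjusted p = 0.000401, limma-trend), with a log2 fold change of -0.62 after quantile normalization, and with ruxolitinib the centred difference was -0.12. Since reads can move between the copies, the pair is best read together.

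Il3ra (ENSMUSG00000068758.8) lies on the plus strand of chromosome 14 from 14346275 to 14356011. In DMSO-treated libraries its values were 5.47, 5.52 and 5.51 log2 CPM. The CHZ868-treated libraries had 5.25, 5.37 and 5.15, and the ruxolitinib-treated ones 5.77, 5.64 and 5.93. The inhibitor groups thus lay on opposite sides of the controls, without overlap. With CHZ868 the log2 fold change was -0.24 (95% confidence interval -0.45 to -0.03, adjusted p = 0.0483, limma-trend). This call is at the edge of the threshold, and it was lost with median centring (adjusted p = 0.0733), with quantile normalization (adjusted p = 0.0513) and in 5 of 6 fits with a single library omitted, where adjusted p from limma reached 0.138 (it held when CHZ868-treated replicate 2 was omitted). The centred difference with ruxolitinib was 0.25, between 0.19 and 0.32 with a library left out. An antisense gene, Gm48860, shares 990 bases with the span of Il3ra.

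Epor (ENSMUSG00000006235.6, chromosome 9, 21958897 to 21963506, minus strand) encodes the erythropoietin receptor, which pairs with itself and holds JAK2 on both tails. It had 4.02, 4.30 and 4.15 log2 CPM in DMSO-treated, 4.62, 4.41 and 4.60 in CHZ868-treated and 5.18, 4.87 and 5.04 in ruxolitinib-treated libraries, or 140 to 199, 159 to 245 and 287 to 352 reads. On the log2 CPM scale, no library of one group fell into the range of another. The centred difference with ruxolitinib was 0.85, or 1.80-fold, which was the largest in size of the 7 chains in that comparison. With CHZ868 Epor rose by 0.39 (95% confidence interval 0.09 to 0.69, adjusted p = 0.0299, limma-trend), which is 1.31-fold. The CHZ868 call was lost in 4 of 6 fits with a single library omitted (those without DMSO-treated replicate 1 or 3 or CHZ868-treated replicate 1 or 3), with an adjusted p of at most 0.123 from limma. Of 4 markers of red cell precursors 3 were measured (Gata1, Klf1 and Hba-a1), and their summed level was 9.04 to 9.15 log2 CPM in DMSO-treated, 9.45 to 9.54 in CHZ868-treated and 9.55 to 10.1 in ruxolitinib-treated libraries, as deposited. With CHZ868, Gata1 rose by 0.47 (adjusted p = 5.16e-05, limma-trend) and Klf1 by 1.16 (adjusted p = 3.03e-08, limma-trend), while Hba-a1 was at 0.15 with overlapping groups (adjusted p = 0.0729, limma-trend). With ruxolitinib all 3 lay wholly above the controls, with centred differences of 0.58 for Gata1, 0.96 for Klf1 and 0.80 for Hba-a1. The part of such cells in the Epor values was not tested.

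Il4ra (ENSMUSG00000030748.9, chromosome 7, 125552120 to 125579474, plus strand) is the chain that binds interleukin-4. In DMSO-treated libraries it had 6.86, 6.96 and 6.93 log2 CPM, in CHZ868-treated 5.95, 5.94 and 5.85, and in ruxolitinib-treated 6.33, 6.07 and 6.31. Both inhibitor groups lay wholly below the controls, and CHZ868 below ruxolitinib. Il4ra fell by 1.01 on the log2 scale with CHZ868 (standard error 0.07, adjusted p = 2.51e-08, limma-trend), a 2.01-fold lower level and the largest fall of the 7 chains. The centred difference with ruxolitinib was -0.71, or 1.63-fold lower, and ranged from -0.75 to -0.63 with a library left out. The antisense gene Gm44876 shares 1342 bases with its span. The library kit keeps strand, but the counting is not stated to have used it, so for Il3ra and Il4ra reads from either strand cannot be told apart.

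Il2rg (ENSMUSG00000031304.18, chromosome X, 101264378 to 101268255, minus strand) is the common gamma chain, which joins Il4ra and several interleukin receptors and holds JAK3. It had 2.87, 3.74 and 3.13 log2 CPM in DMSO-treated libraries, resting on 62, 135 and 81 reads. The CHZ868-treated libraries had 4.85, 4.88 and 4.37 log2 CPM from 288, 221 and 164 reads. The ruxolitinib-treated libraries had 3.14, 3.95 and 3.75 from 84, 150 and 125 reads. CHZ868-treated cells were above all other libraries of this experiment, while ruxolitinib-treated and DMSO-treated cells overlapped. The log2 fold change with CHZ868 was 1.45 (95% confidence interval 0.99 to 1.91, adjusted p = 5.08e-05, limma-trend), or 2.73-fold higher. It passed under all 12 alternatives, and adjusted p from limma was at most 0.00444. For ruxolitinib the centred difference was 0.34, with a range of 0.15 to 0.58 when a library was left out. The annotated gene Gm20489 spans all of Il2rg on the same strand and shares 730 identical transcript bases with it, so some reads could belong to either.

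Ifngr1 (ENSMUSG00000020009.13, chromosome 10, 19591949 to 19610229, plus strand) binds interferon gamma and works with JAK1. Its values were 5.49, 5.57 and 5.49 log2 CPM in DMSO-treated, 6.09, 6.01 and 5.90 in CHZ868-treated and 6.25, 6.41 and 6.16 in ruxolitinib-treated libraries. Every library with an inhibitor was above every control. The rise with CHZ868 was 0.48 (standard error 0.09, adjusted p = 0.000317, limma-trend), or 1.40-fold, and the centred difference with ruxolitinib was 0.73, or 1.66-fold.

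Set directly against each other, ruxolitinib-treated and CHZ868-treated cells did not overlap for 4 of the 7 chains, beside 35.3% of all shared genes (18.6% higher and 16.7% lower), and no test was run because the tables are separate. Il2rg was lower with ruxolitinib by a centred log2 difference of -1.14. Il3ra was higher with ruxolitinib by 0.47, Epor by 0.44 and Il4ra by 0.27. For Ifngr1 the difference was 0.22, for Csf2rb2 0.18 and for Csf2rb 0.17, with overlapping groups. Quantile normalization, an alternative chosen after seeing the data, left no overlap in any of the 7, beside 35.4% of all shared genes. It gave 0.46 for Csf2rb and 0.45 for Csf2rb2.

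**Figure D3:**
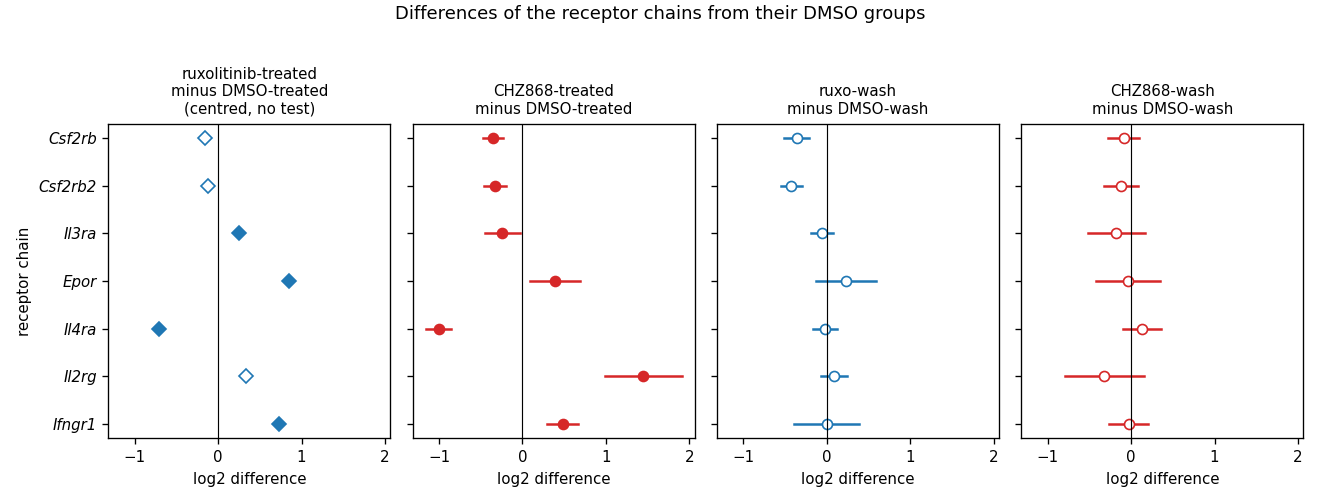
Log2 differences of the 7 receptor chains from their DMSO groups in the 4 comparisons. Circles are limma-trend fold changes with 95% confidence intervals, filled where adjusted p was under 0.05, and diamonds are median-centred differences without a test, filled where the groups did not overlap. All 7 circles are filled for CHZ868-treated cells and none in the washout comparisons, where Csf2rb and Csf2rb2 in ruxo-wash cells (-0.36 and -0.43) are the only intervals that leave out 0.

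The pattern of Il2rg over the 9 libraries of the 6 h experiment, the chain with the largest difference under CHZ868, was matched most closely by Gm45552 (Pearson r = 0.986), Cox7c (0.985), a subunit of cytochrome c oxidase, and Gadl1 (0.981) among 10014 genes. The pattern of Epor, the chain with the largest difference under ruxolitinib, was matched most closely by Hs1bp3 (r = 0.974), Tango2 (0.972) and Stx2 (0.97). Of the other chains, Ifngr1 was nearest to Epor (r = 0.884) and Il4ra farthest from Il2rg (r = -0.759). These r describe 9 libraries in 3 groups that share their scaling.

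Other receptor chains were taken from a list of 30, of which 13 were measured in the CHZ868-treated table. Of these 12 passed the test, 4 higher and 8 lower (53.2% of all genes passed), with a median log2 fold change of -0.33. The largest fall was that of Il12rb1, a chain of the interleukin-12 and interleukin-23 receptors, with -1.87 (standard error 0.18, adjusted p = 4.99e-07, limma-trend). Il15ra, which binds interleukin-15, followed with -1.27 (adjusted p = 1.54e-05, limma-trend). Il2rb, the partner of Il2rg in the interleukin-2 and interleukin-15 receptors, fell by 0.46 (adjusted p = 0.0175, limma-trend) while Il2rg rose. Of the interferon receptors, Ifngr2, the partner of Ifngr1, rose by 0.38 (adjusted p = 0.0113, limma-trend), Ifnar1 rose by 0.40 (adjusted p = 0.00125) and Ifnar2 fell by 0.33 (adjusted p = 0.00928). With ruxolitinib 5 of the 13 did not overlap with DMSO, 2 higher and 3 lower (beside 44.6% of all shared genes), with a median centred difference of -0.19 beside 0.04 for all shared genes. Here Il12rb1 was at -1.47 and Il15ra at -0.77, both wholly below the controls.

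The 4 kinases that the chains hold all passed the test under CHZ868, 2 in each direction. Of all genes 53.2% passed, 26.8% higher and 26.4% lower. Jak3, the partner of Il2rg, fell by 0.83 (standard error 0.08, adjusted p = 5.78e-07, limma-trend) and Tyk2 fell by 0.30 (adjusted p = 0.0357). Jak1 rose by 0.28 (adjusted p = 0.00092, limma-trend) and Jak2 by 0.19 (adjusted p = 0.0154). With ruxolitinib the centred differences were -0.33 for Jak3, 0.30 for Tyk2, 0.13 for Jak1 and 0.06 for Jak2. Jak2 alone overlapped, in a comparison where 44.6% of all shared genes did not overlap. Ligands were mostly not analysed, with 4 of 18 measured, and the 2 that passed under CHZ868 fell (26.4% of all genes did). Osm, oncostatin M, fell by 2.46 (standard error 0.22, adjusted p = 2.81e-07, limma-trend), and Lif, leukaemia inhibitory factor, fell by 1.67 (adjusted p = 5.31e-06). Both signal through Il6st, which has no value here. Il15 and Il6 had log2 fold changes of -0.05 and 0.21 (adjusted p = 0.851 and 0.619, limma-trend).

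**Figure D4:**
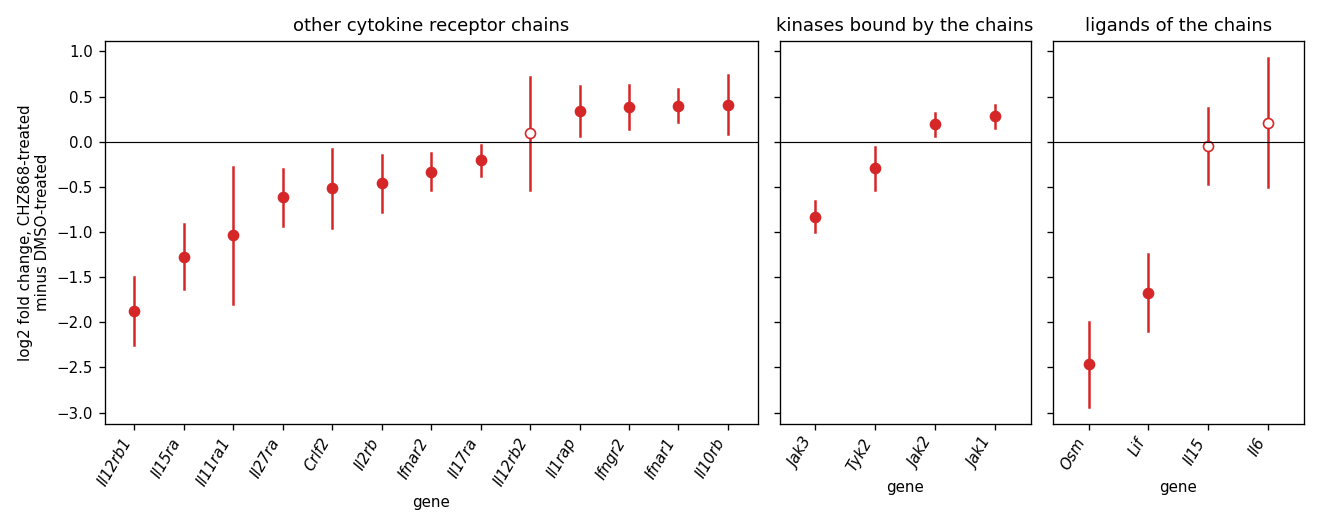
Log2 fold changes between CHZ868-treated and DMSO-treated cells for other cytokine receptor chains, the kinases bound by the chains and their ligands, with 95% confidence intervals, filled where adjusted p was under 0.05. Il12rb1 (-1.87) and Osm (-2.46) are the lowest of their lists, and Il12rb2, Il15 and Il6 are the open circles.

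After washout of ruxolitinib none of the 7 chains passed the test, in a comparison where 0.0229% of all genes did (3 of 13085). At an unadjusted p under 0.05 there were 2 of the 7 chains, beside 7.03% of all genes, and limma without the trend also called 0. Those 2 were the beta chains. Csf2rb2 had 5.29, 5.31 and 5.28 log2 CPM in ruxo-wash and 5.68, 5.70 and 5.78 in DMSO-wash libraries. Csf2rb had 7.37, 7.19 and 7.39 against 7.70, 7.61 and 7.72. Both were lower in all ruxo-wash libraries than in any control, as 6.59% of all genes were. The log2 fold change of Csf2rb2 was -0.43 (95% confidence interval -0.55 to -0.30, adjusted p = 0.108, limma-trend), rank 14 of 13085 genes by p. That of Csf2rb was -0.36 (95% confidence interval -0.51 to -0.21, adjusted p = 0.325, limma-trend), rank 42. Over the alternatives adjusted p from limma ranged from 0.109 to 0.677 for Csf2rb2 and from 0.278 to 0.677 for Csf2rb. Of the 4 red cell markers, Hba-a1 alone passed in these cells and fell by 0.21 (adjusted p = 0.0367, limma-trend), while Gata1 was at 0.04, Klf1 at -0.01 and Hbb-bt at 0.28. Their summed level, nearly all of it Hba-a1, was 11.7 log2 CPM in every ruxo-wash library and 11.9 in every DMSO-wash library, and its part in the beta chain values was not tested.

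For the other 5 chains, ruxo-wash and DMSO-wash libraries overlapped. Epor had 4.0, 3.78 and 3.60 log2 CPM in ruxo-wash and 3.41, 3.52 and 3.78 in DMSO-wash libraries, a log2 fold change of 0.23 with a 95% confidence interval of -0.13 to 0.58. Il2rg was at 0.09 (-0.07 to 0.24), Il3ra at -0.06 (-0.19 to 0.07), Il4ra at -0.02 (-0.17 to 0.12) and Ifngr1 at -0.00 (-0.39 to 0.39), as log2 fold changes with 95% confidence intervals. For each of these chains the interval leaves out the centred difference seen after 6 h with ruxolitinib. Those differences were 0.85 for Epor, 0.34 for Il2rg (with overlapping groups), 0.25 for Il3ra, -0.71 for Il4ra and 0.73 for Ifngr1. However, the washout cells had ruxolitinib for 1 h only, the experiments are separate and their difference was not tested.

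After washout of CHZ868 none of the 7 chains passed the limma-trend test either, beside 4.02% of all genes (457 of 11355). At an unadjusted p under 0.05 there were 0 of the 7 chains, beside 24.4% of all genes, and limma without the trend called 0 chains and 0 genes. No chain had groups without overlap, against 31% of all genes. The log2 fold changes and 95% confidence intervals were -0.09 (-0.27 to 0.10) for Csf2rb, -0.12 (-0.33 to 0.08) for Csf2rb2 and -0.18 (-0.52 to 0.17) for Il3ra. Those of Epor and Ifngr1, which had risen after 6 h with CHZ868, were -0.04 (-0.43 to 0.35) and -0.03 (-0.26 to 0.20). Il4ra had 7.0, 6.83 and 6.98 log2 CPM in CHZ868-wash and 6.77, 6.99 and 6.66 in DMSO-wash libraries, a fold change of 0.13 (-0.09 to 0.36). Il2rg had 2.67, 3.03 and 3.30 against 3.27, 3.12 and 3.56, a fold change of -0.32 (-0.79 to 0.15). The chains at both ends of the 6 h comparison thus had values that overlapped with DMSO after washout. These cells had CHZ868 for 1 h only, in a separate experiment, and no group was taken at the end of that hour. A change that went back and a change that never arose therefore cannot be told apart. Without DMSO-wash replicate 3, which stood apart, 0 chains passed among 1426 genes called, and without replicate 2 of the same group 0 chains passed among 1298. Leaving out any of the other 4 libraries took the call from nearly every gene, with 0 or 1 called. Of the listed chains, kinases and ligands none passed limma-trend after washout either, with 0 of 14 other receptor chains, 4 kinases and 6 ligands measured in ruxo-wash cells and 0 of 12, 4 and 3 in CHZ868-wash cells. At an unadjusted p under 0.05 by limma-trend, there was 1 of the 12 other chains in CHZ868-wash cells and 0 of the remaining genes of these 3 lists. Among the red cell markers in CHZ868-wash cells, Hba-a1 rose by 0.78 (adjusted p = 0.0377, limma-trend) and Klf1 fell by 0.57 (adjusted p = 0.0323), with a summed level of 8.35 to 8.65 log2 CPM against 7.90 to 8.33 in the controls.

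**Figure D5:**
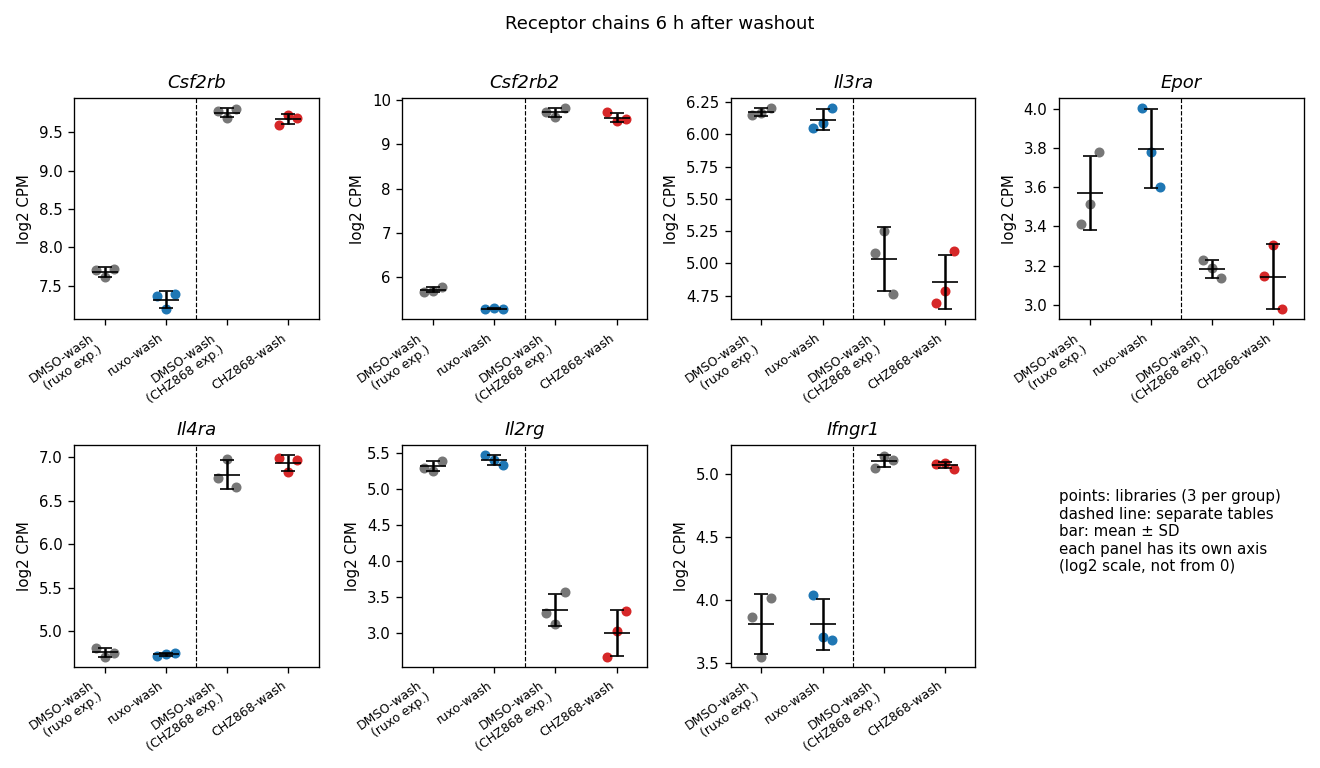
Deposited log2 CPM of the 7 receptor chains in the washout experiments, with points for the 3 libraries of a group and bars for mean ± SD. The dashed line parts the ruxolitinib experiment from the CHZ868 experiment, whose tables were normalized separately and whose levels are not comparable, and within each experiment only Csf2rb and Csf2rb2 in ruxo-wash cells are clear of their controls.

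The washout effects of the inhibitors were compared in a fit over all 12 washout libraries and 10078 shared genes, of which 1.9% passed (191 genes), with 0 of the 7 chains among them by limma-trend and 0 without the trend. At an unadjusted p under 0.05 there were 2 of the 7, beside 18.9% of all genes. The effect of ruxolitinib washout was more negative than that of CHZ868 washout by a log2 difference of -0.30 for Csf2rb2 (95% confidence interval -0.51 to -0.10, adjusted p = 0.111, limma-trend) and of -0.27 for Csf2rb (-0.48 to -0.07, adjusted p = 0.139). When replicate 3 of the controls for CHZ868-wash cells was omitted, Csf2rb2 passed with an adjusted p of 0.0417 from limma and 530 genes were called. Over the 18 alternatives adjusted p from limma was between 0.0417 and 0.396 for Csf2rb2. For the other chains the difference was between -0.16 (Il4ra) and 0.41 (Il2rg, 95% confidence interval -0.07 to 0.88).

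The balance of the beta chains was not the same in all tables. In the 6 h experiment Csf2rb was 1.13-fold the CPM of Csf2rb2 in DMSO-treated, 1.10-fold in ruxolitinib-treated and 1.11-fold in CHZ868-treated cells. The CHZ868 washout experiment gave 1.02-fold in DMSO-wash and 1.05-fold in CHZ868-wash cells. In the ruxolitinib washout experiment, however, it was 3.89-fold in DMSO-wash and 4.07-fold in ruxo-wash cells. The inhibitor groups and their own controls were thus close within each experiment, and the step was between experiments. Values of the ruxolitinib washout experiment are also the ones that could not be brought back to whole reads. Prtn3, a neutrophil protease, also differed between these controls, with 9.18 log2 CPM in DMSO-wash libraries of the ruxolitinib experiment and 5.65 in those of the CHZ868 experiment, as deposited. The other measured markers of neutrophils and monocytes were at 1.01 against 3.11 for Csf1r, in the opposite direction, and at 3.52 against 2.94 for Itgam. The part of such cells and the part of read assignment between the copies in this step were not tested.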

How the data were processed

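Members and gene lists were chosen with earlier results of these data known. The authors deposited log2 CPM values in 4 tables, TMM-normalized and filtered for low expression, with a small constant added. The methods of the study name kallisto and GRCm38, whereas the submitters' processing notes name STAR 2.7.3a, edgeR 4.0.16 and GRCm39, so how reads of near copies were assigned is not certain. Whole reads were recovered from low values in 3 tables (100% of values up to 50 reads, within 0.1 read).

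Groups in one table were compared by limma-trend (limma 3.58.1, R 4.3.3) on the deposited log2 values of those groups, without a replicate block, with Benjamini-Hochberg adjusted p-values (over each whole table) and a two-sided threshold of 0.05. This replaces voom, which needs counts. Ruxolitinib-treated libraries were compared with DMSO-treated ones after median centring, without a test. The shifts removed were at most 0.04 log2 units. The fits were checked on simulated data. Genes named are the chains, the listed chains, kinases, ligands, receptor tyrosine kinases, STAT5 feedback genes and markers, and the 3 genes most correlated with 2 of the chains. Alternatives were limma without the trend, median centring, quantile normalization, log2(CPM + 1), a filter at a mean log2 CPM of 1, a replicate block and leaving out each library. Positions and lengths came from GENCODE vM21, and promoter sequences from RefSeq. Near copies were sought with blastn at 90% identity over 200 bases.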

Additional observations from a re-analysis of the deposited data

Results flagged for a closer look

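Il3ra was higher than DMSO in all ruxolitinib-treated libraries (centred difference 0.25) and lower in all CHZ868-treated libraries (log2 fold change -0.24). Tyk2, a kinase bound by several of the chains, showed the same opposition, with 0.30 for ruxolitinib and -0.30 for CHZ868. Each was picked out because every library of one inhibitor lay on one side of the shared DMSO-treated libraries and every library of the other inhibitor on the opposite side. Groups without overlap with DMSO made up 44.6% of all shared genes for ruxolitinib and 59.7% of all genes for CHZ868. The share of all genes on opposite sides was not counted. The Il3ra call with CHZ868 passed under 4 of 12 alternatives. The difference between the inhibitors was not tested, because the groups are in separately normalized tables.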

How the results depend on the processing

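The 7 calls under CHZ868 became 6 with median centring, quantile normalization or the replicate block and 5 to 7 with a library left out, among 5081 to 6426 genes called. For ruxolitinib-treated cells, 4 to 6 chains had groups without overlap with a library left out, and against CHZ868-treated cells 4 to 6, or 7 with quantile normalization. No chain was called after either washout under any alternative. In the difference between washout effects 0 to 1 chain was called with a library left out. Over all genes, ruxo-wash gave 9 calls without the trend and 0 to 1 with a library left out, CHZ868-wash gave 0 without the trend and 0 to 1426 with a library left out, and the difference between washout effects gave 14 and 5 to 628. Signs turned only for chains near 0 in washout comparisons. For Ifngr1 in ruxo-wash cells the value was 0.0056 with median centring and -0.13 to 0.10 with a library left out. With a library left out, Il4ra in ruxo-wash cells ranged from -0.049 to 0.0022, Epor in CHZ868-wash cells from -0.12 to 0.043, and Ifngr1 in the difference of effects from -0.10 to 0.13. With the mean length of protein-coding transcripts in place of the longest, the span of levels per length in DMSO-treated cells was 6.31 rather than 5.90 log2 units. Correlations of deviations between same-numbered libraries ran from -0.101 to 0.0879 over 12 pairs, and 2 of 12 inhibitor libraries matched their own number best. The values thus gave no sign that replicate numbers pair the libraries, but they cannot show that same-numbered libraries were prepared separately. The replicate block gave 0 calls in ruxo-wash cells and 6 in the difference of effects, and moved the adjusted p of Il3ra under CHZ868 to 0.0597. The cause of these shifts was not tested.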

Other observations

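Cish and Socs2, feedback genes of STAT5 that report on signalling below the chains, were lower in every inhibitor-treated library than in every DMSO-treated one at 6 h. With CHZ868 Cish fell by 1.39 on the log2 scale (standard error 0.08, adjusted p = 1.83e-09, limma-trend) and Socs2 by 0.66 (adjusted p = 0.000264). Centred differences with ruxolitinib were -1.32 and -0.71, close to the values with CHZ868. After washout Cish had log2 fold changes of 0.13 in ruxo-wash and -0.00 in CHZ868-wash cells (adjusted p = 0.759 and 0.995, limma-trend). Every ruxo-wash library lay above every DMSO-wash one for Cish, in a comparison where 12.9% of all genes had groups without overlap in either direction. Socs2 had log2 fold changes of 0.04 in ruxo-wash and -0.05 in CHZ868-wash cells (adjusted p = 0.965 and 0.798, limma-trend).

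Receptors with a kinase domain of their own, which do not depend on JAK kinases, were measured for 3 of 5 listed genes. Csf1r, the receptor for macrophage colony-stimulating factor, fell by 1.18 with CHZ868 (adjusted p = 0.00578, limma-trend), and Insr, the insulin receptor, fell by 0.56 (adjusted p = 0.000421). The level of Csf1r was low, with 3.20 ± 0.36 log2 CPM in DMSO-treated and 2.02 ± 0.63 in CHZ868-treated cells (mean ± SD). Igf1r, the receptor for insulin-like growth factor, was at -0.07 with CHZ868 (log2 fold change, adjusted p = 0.388 by limma-trend) and had a centred difference of 0.24 with ruxolitinib, where its libraries lay above all controls. With ruxolitinib the centred differences were -0.31 for Csf1r and -0.08 for Insr, both with overlapping groups.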
